A study of Homo sapiens with 6 samples.

Results

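The genes described here encode Polycomb proteins: EZH2, EZH1, EED, SUZ12 and JARID2 of Polycomb repressive complex 2 (PRC2), and RING1, RNF2, BMI1 and CBX8 of Polycomb repressive complex 1 (PRC1). They were taken by symbol from a table of read counts per gene, and all 9 were among its 23368 gene symbols. The counts came from RNA-seq of MDA-MB231 cells, an established human cell line from a triple-negative breast tumour. Cells were transfected with siL1 or siL2, which are 2 different siRNAs against LSD1, or with a control siRNA (siControl), and each group had 2 libraries. All groups shared the same line, culture medium and transfection reagent, and no time after transfection was given in the labels. LSD1, encoded by KDM1A, is a histone demethylase that removes methyl groups from lysines, chiefly H3K4.

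Polycomb proteins keep developmental genes silent. PRC2 methylates H3K27 through EZH2 or its relative EZH1, which work only in a complex with EED, the reader of methylated H3K27 that stimulates the enzyme, and SUZ12, the scaffold. JARID2 is an accessory subunit that helps PRC2 bind chromatin. PRC1 ubiquitinates histone H2A through RING1 or RNF2, also called RING1B. In PRC1, BMI1 (PCGF4) is a partner of the RING proteins, and CBX8 carries a chromodomain that binds the mark made by PRC2. EZH2 is known as a target of E2F factors and is abundant in proliferating cells, whereas EZH1 is known to persist in resting ones.

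Promoters are shown for EZH2, EZH1 and SUZ12, because each held TTTNNCGC, a loose form of the motif bound by E2F factors, and because EZH2 and EZH1 were the members that fell the most with siL1. The windows run from 250 bases before to 50 bases after the annotated start, 5′ to 3′ on the strand of the gene, from RefSeq on GRCh38.p14. Capitals mark the motif, which was searched on both strands and appears as its reverse complement in EZH1. The EZH2 window lies at chr7:148884242-148884541 on the minus strand, the EZH1 window at chr17:42744991-42745290 on the minus strand and the SUZ12 window at chr17:31936757-31937056 on the plus strand.
EZH2: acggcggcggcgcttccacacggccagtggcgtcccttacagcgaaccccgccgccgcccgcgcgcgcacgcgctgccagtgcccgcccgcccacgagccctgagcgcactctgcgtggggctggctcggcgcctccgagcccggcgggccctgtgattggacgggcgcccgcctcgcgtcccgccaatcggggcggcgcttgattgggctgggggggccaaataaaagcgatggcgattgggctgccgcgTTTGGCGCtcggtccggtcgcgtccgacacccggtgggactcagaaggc
EZH1: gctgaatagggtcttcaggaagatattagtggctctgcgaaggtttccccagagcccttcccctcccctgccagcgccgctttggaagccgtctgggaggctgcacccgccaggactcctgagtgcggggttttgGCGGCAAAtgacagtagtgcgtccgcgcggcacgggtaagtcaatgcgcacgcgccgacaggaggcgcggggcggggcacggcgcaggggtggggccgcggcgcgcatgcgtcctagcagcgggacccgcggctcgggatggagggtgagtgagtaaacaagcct
SUZ12: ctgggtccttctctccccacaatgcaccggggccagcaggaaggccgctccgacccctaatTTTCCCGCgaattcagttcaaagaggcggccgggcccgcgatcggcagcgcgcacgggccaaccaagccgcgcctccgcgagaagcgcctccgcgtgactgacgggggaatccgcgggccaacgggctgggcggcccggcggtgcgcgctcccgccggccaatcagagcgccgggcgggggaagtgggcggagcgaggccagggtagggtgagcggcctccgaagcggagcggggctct

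RefSeq windows were matched for 8 of the 9 genes, in 11 windows, and CBX8 had no entry. The motif occurred in 3 of these 11 windows, and in 6.89% of all 35116 windows of the same 300 bases. In EZH2 it read TTTGGCGC and began at base 2 of the transcript, and a second EZH2 window, at chr7:148883436-148883735, held 0 matches. In SUZ12 it read TTTCCCGC and began 189 bases before the start. In EZH1 it read TTTGCCGC on the opposite strand, and its first base on the strand of the gene lay 115 bases before the start. These matches are descriptions of the letters, and no binding was measured.

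The libraries held 22047738 to 26765079 counts, and levels are given as CPM, the counts of a gene scaled to a common library total. Changes are log2 fold changes with their standard errors (SE) from edgeR's quasi-likelihood test, with p-values adjusted by the Benjamini-Hochberg method over the 13322 genes that passed the filter on low counts, and a threshold of 0.05. All 9 Polycomb genes passed that filter. KDM1A, the targeted gene, stood at 27.7 and 28.1 CPM in the siL1 libraries and 17.4 and 18.1 CPM in the siL2 libraries, against 158 and 165 CPM in the siControl libraries. Of the identity genes of the line, VIM averaged 3354, 3637 and 3573 CPM after siL1, siL2 and siControl, while ESR1, PGR and CDH1, which triple-negative mesenchymal cells lack, each averaged under 0.05 CPM over the 6 libraries. On the same list, ERBB2 averaged 54.0, EPCAM 10.7, KRT8 235, KRT18 234, EGFR 103 and CD44 649 CPM over the 6 libraries. Of the 7 identity genes tested, 1 rose and 2 fell with siL1, and 0 rose and 4 fell with siL2. Among all genes tested, 24.7% rose and 25.7% fell with siL1, and 22.6% rose and 23.3% fell with siL2. Of 12 markers of blood, stromal, endothelial and liver cells, 7 did not pass the filter, and ALB, the albumin gene, had 0 counts throughout. Their summed level was 21.9 and 22.7 CPM after siL1 and 15.1 and 13.5 CPM after siL2, against 8.57 and 8.42 CPM after siControl, and of the 5 tested 3 rose with siL1 and 2 with siL2, PDGFRB and COL1A1 among them in each case. The part of such markers in the Polycomb results was not tested. Whether replicate libraries stem from separate cultures is not said in the labels. A p-value here therefore reflects spread among these libraries alone, and that spread may be technical. In bulk RNA, fewer cells of a kind cannot be told apart from less RNA per cell.

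Levels were compared between genes only per kilobase of exon, using GENCODE 29 exon lengths. These lengths merge all annotated exons of a gene, including those that its main transcript may lack. The order of the genes, and any exchange of places between groups, depends on these lengths, and other lengths were not tried. On this scale SUZ12 was the most abundant of the 9 genes and BMI1 the least in every group. The level of BMI1 is uncertain, because 1000 of its 3428 exon bases are shared with another gene, described below. SUZ12 averaged 30.9 ± 1.22 CPM per kilobase with siL1 and 34.2 ± 0.965 with siL2, against 29.8 ± 0.00849 with siControl (SD, n = 2 each). EZH2 followed SUZ12 in the control libraries, at 26.3 ± 1.86 CPM per kilobase, ahead of EED at 24.1 ± 0.375 and RING1 at 21.2 ± 1.28 (SD, n = 2 each). With either LSD1 siRNA, EZH2 stood below both RING1 and EED, at 17.9 ± 0.120 CPM per kilobase with siL1 and 19.3 ± 1.10 with siL2 (SD, n = 2 each). RNF2 came next in all groups (10.9, 12.3 and 12.7 CPM per kilobase with siL1, siL2 and siControl). JARID2 and EZH1 exchanged places: JARID2 averaged 8.50 and 9.29 CPM per kilobase with siL1 and siL2, against 7.05 with siControl, and EZH1 5.60 and 7.88, against 7.97. CBX8 (2.86, 2.32 and 2.69 CPM per kilobase) and BMI1 (1.31, 1.06 and 1.28) were the lowest. Of neighbours in this order, RING1 and EED overlapped between libraries with siL1 and with siL2, and the libraries of all other neighbours did not overlap within a group.

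**Figure D1:**
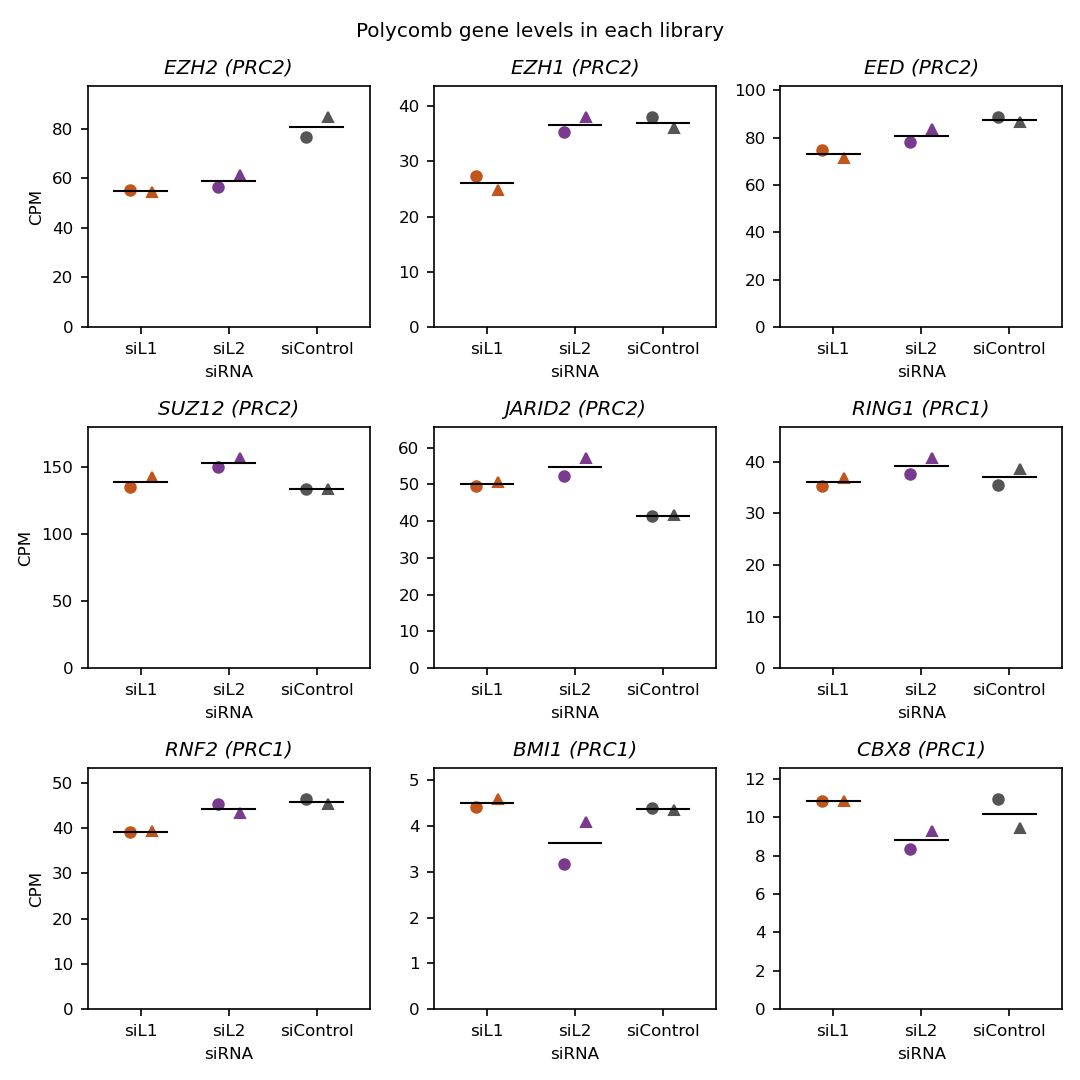
Level of each Polycomb gene in each library, in CPM on an axis from 0, with siL1, siL2 and siControl from left to right. Circles are replicate 1, triangles replicate 2 and black lines the mean of 2 libraries; EZH2 is lower with both LSD1 siRNAs, EZH1 lower with siL1, and JARID2 higher with both.

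EZH2, the main H3K27 methyltransferase of proliferating cells, fell with each siRNA. EZH2 levels were 55.1 and 54.6 CPM in the siL1 libraries and 56.6 and 61.3 CPM in the siL2 libraries, against 76.5 and 84.5 CPM in the siControl libraries. Every knockdown library lay below both control libraries. With siL1 it fell by 0.55 on the log2 scale (SE 0.0620, adjusted p = 1.14e-05), and with siL2 it fell by 0.45 (SE 0.0613, adjusted p = 5.83e-05). These changes correspond to 0.683 and 0.730 of the control level. The siRNAs did not differ past the threshold for EZH2, with a log2 difference of 0.10 for siL2 over siL1, a 95% interval from -0.04 to 0.23 and adjusted p = 0.237.

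EZH1, the relative of EZH2 in the same complex, fell with siL1. EZH1 levels were 27.3 and 24.7 CPM in the siL1 libraries and 35.2 and 37.9 CPM in the siL2 libraries, against 37.9 and 36.1 CPM in the siControl libraries. The siL1 libraries lay below all others, and the siL2 and control libraries overlapped. The log2 fold change was -0.51 with siL1 (SE 0.0732, adjusted p = 9.2e-05) and -0.02 with siL2 (95% interval -0.17 to 0.13, adjusted p = 0.835). EZH1 was higher with siL2 than with siL1 by 0.48 on the log2 scale (SE 0.0725, adjusted p = 0.00014), so the difference between the siRNAs itself passed the threshold.

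EED, the subunit that reads methylated H3K27, fell with siL1 by 0.26 on the log2 scale (SE 0.0513, adjusted p = 0.00113). Its libraries held 74.7 and 71.5 CPM after siL1 and 78.3 and 83.4 CPM after siL2, against 88.5 and 86.6 CPM after siControl. All knockdown libraries lay below the controls, but with siL2 the log2 fold change of -0.12 did not pass (SE 0.0507, adjusted p = 0.0734). SUZ12, the scaffold of PRC2, had 135 and 143 CPM after siL1 and 150.4 and 157 CPM after siL2, against 134 CPM in each control library. It rose with siL2 by 0.20 (SE 0.0451, adjusted p = 0.00333). With siL1 its log2 fold change was 0.06 (95% interval -0.04 to 0.16, adjusted p = 0.289).

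JARID2, the accessory subunit, rose with each siRNA. JARID2 levels were 49.4 and 50.5 CPM in the siL1 libraries and 52.3 and 57.0 CPM in the siL2 libraries, against 41.3 and 41.7 CPM in the siControl libraries. The groups did not overlap. It rose by 0.27 with siL1 (SE 0.0620, adjusted p = 0.00252) and by 0.39 with siL2 (SE 0.0613, adjusted p = 0.000183). The difference of 0.12 between siL2 and siL1 did not pass the threshold (95% interval -0.01 to 0.25, adjusted p = 0.119).

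RNF2, the main H2A ubiquitin ligase of PRC1, fell with siL1. Its libraries held 39.0 and 39.4 CPM after siL1 and 45.4 and 43.3 CPM after siL2, against 46.4 and 45.3 CPM after siControl. The siL1 libraries lay below all others and the siL2 libraries overlapped the controls. The log2 fold change was -0.22 with siL1 (SE 0.0586, adjusted p = 0.00745) and -0.05 with siL2 (95% interval -0.18 to 0.07, adjusted p = 0.499). RING1, its paralogous ligase, stood at 35.4 and 36.8 CPM after siL1 and 37.6 and 40.7 CPM after siL2, against 35.5 and 38.6 CPM after siControl. Its libraries overlapped between each knockdown and the control. RING1 did not pass with siL1 (log2 fold change -0.03, 95% interval -0.19 to 0.12, adjusted p = 0.714) or with siL2 (0.07, 95% interval -0.08 to 0.22, adjusted p = 0.412).

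CBX8, the chromodomain subunit, had 10.8 and 10.9 CPM after siL1 and 8.33 and 9.29 CPM after siL2, against 10.9 and 9.44 CPM after siControl. It passed with neither siRNA, at log2 fold changes of 0.10 with siL1 (adjusted p = 0.495) and -0.21 with siL2 (adjusted p = 0.156). With a library left out, the siL2 value of CBX8 ranged from -0.32 without siControl replicate 2 to -0.11 without siControl replicate 1. BMI1, the PCGF partner of the RING ligases, had 104 and 113 reads with siL1 and 85 and 101 with siL2, against 97 and 103 with siControl, the lowest counts of the 9 genes. Its 95% intervals were -0.30 to 0.39 with siL1 (adjusted p = 0.832) and -0.63 to 0.08 with siL2 (adjusted p = 0.192), the widest of the 9. The siL2 value of BMI1 was -0.28, and ranged from -0.47 without siL2 replicate 2 to -0.096 without siL2 replicate 1. In GENCODE 29, BMI1 shared 1000 exon bases with the readthrough gene COMMD3-BMI1, which was listed with 0 counts in all 6 libraries. How reads in that stretch were counted is not given in the sources used here, so the level of BMI1 is uncertain. SUZ12P, a copy of part of SUZ12, held 1.87, 1.84 and 1.99 CPM after siL1, siL2 and siControl, and how reads common to both were assigned is likewise not given. COMMD3, the neighbour of BMI1, fell with siL1 (log2 fold change -0.34, adjusted p = 0.0065), and HSD17B8, the neighbour of RING1, rose with siL2 (0.59, adjusted p = 0.00819).

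**Figure D2:**
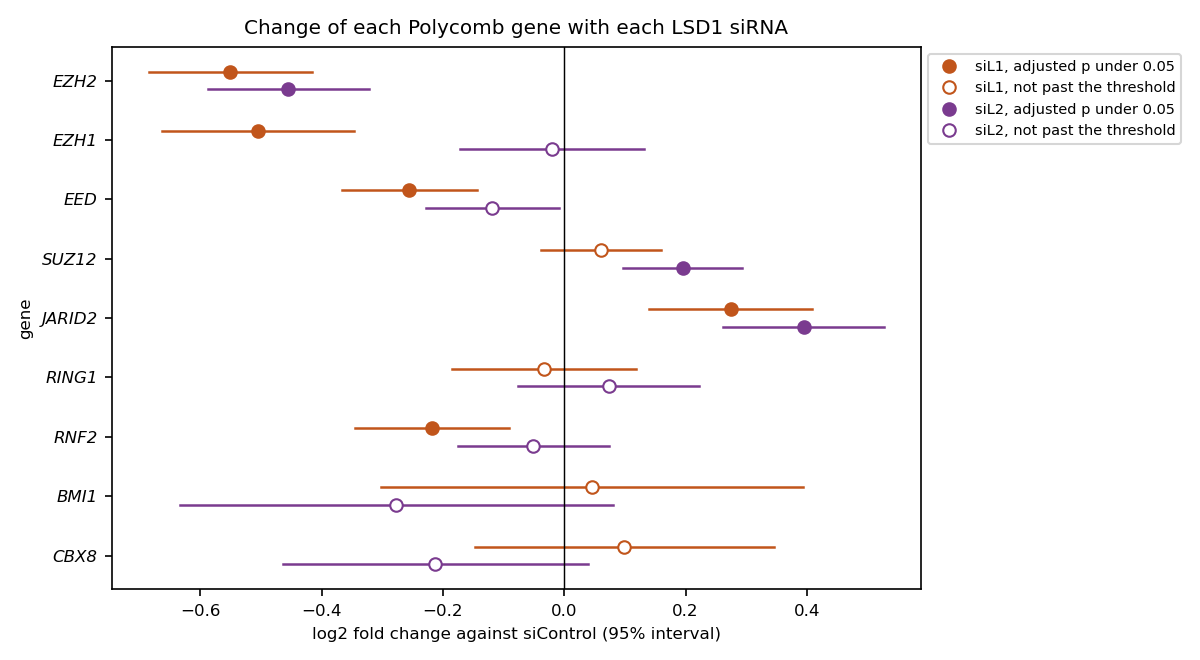
Log2 fold change of each Polycomb gene against siControl, with its 95% interval, for siL1 above siL2. Filled points passed an adjusted p of 0.05; EZH2 lies below 0 and JARID2 above 0 with both siRNAs, and EZH1 is at -0.51 with siL1 and -0.02 with siL2.

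With siL1, 5 of the 9 Polycomb genes passed the threshold, where 50.4% of all genes tested did. Of these, 4 were lower (EZH2, EZH1, EED and RNF2), against 25.7% of all genes, and 1 was higher (JARID2), against 24.7%. With siL2, 3 of 9 passed, where 45.8% of all genes did. SUZ12 and JARID2 were higher (22.6% of all genes were) and EZH2 was lower (23.3%). The median log2 fold change of the 9 genes was -0.03 with siL1 and -0.05 with siL2, beside -0.01 and -0.00 for all genes tested. Both comparisons use the same control libraries. Between siL2 and siL1, 5 of 9 passed, where 46.8% of all genes did. EZH1, EED, SUZ12 and RNF2 were higher with siL2 (23.2% of all genes were) and CBX8 was lower (23.7%). The EZH1 difference passed under all 14 alternatives. The count dropped to 1 with DESeq2's test or without siL1 replicate 1, to 2 without siL1 replicate 2 or siL2 replicate 2, and to 3 without siL2 replicate 1. In the authors' deposited table the same 5 and 3 genes had adjusted p-values under 0.05 with siL1 and siL2. That table gave EZH2 fold changes of 0.686 with siL1 and 0.730 with siL2, and JARID2 fold changes of 1.21 and 1.32.

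The balance between PRC2 genes was followed as a ratio of read counts within each library, which no scaling between libraries affects. Because gene lengths differ, such a ratio is compared only between groups. All of these ratios divide by EZH2, so its fall with both siRNAs enters each of them, and they are not separate results. JARID2 had 0.897 and 0.926 reads per EZH2 read with siL1 and 0.925 and 0.930 with siL2, against 0.540 and 0.493 with siControl. SUZ12 had 2.45 and 2.62 reads per EZH2 read with siL1 and 2.66 and 2.55 with siL2, against 1.75 and 1.58 with siControl. Neither ratio overlapped between knockdown and control libraries. The EED to EZH2 ratio was 1.36 and 1.31 with siL1 and 1.38 and 1.36 with siL2, against 1.16 and 1.02 with siControl, again without overlap. The EZH1 to EZH2 ratio separated siL2 (0.623 and 0.618) from the control (0.496 and 0.427), while siL1 (0.495 and 0.453) lay within the control range. Summed over the 5 PRC2 genes, the level was 342 and 344 CPM after siL1 and 373 and 396 CPM after siL2, against 378 and 383 CPM after siControl. The sum of the 4 PRC1 genes was 89.7 and 91.7 CPM after siL1 and 94.5 and 97.4 CPM after siL2, against 97.2 and 97.7 CPM after siControl. For both sums, siL1 lay below all control libraries, and for PRC2 the siL2 libraries spread to either side of them.

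**Figure D3:**
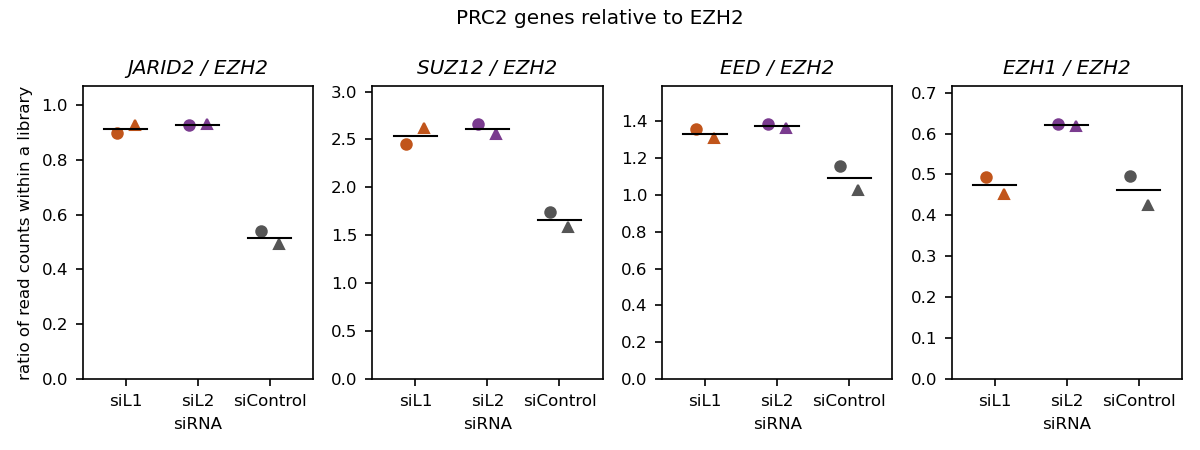
Read counts of JARID2, SUZ12, EED and EZH1 divided by those of EZH2 in the same library, on axes from 0, with siL1, siL2 and siControl from left to right. Circles are replicate 1, triangles replicate 2 and lines the means; JARID2 has 0.897 to 0.930 reads per EZH2 read after knockdown, against 0.540 and 0.493 in the controls.

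The other PRC2 genes on a list of 12 symbols did not move in one direction. Of 9 tested, 5 rose and 2 fell with siL1 (median log2 fold change 0.12), and 3 rose and 2 fell with siL2 (median -0.04). Beside this list and those below, 24.7% of all genes tested rose and 25.7% fell with siL1. With siL2, 22.6% of all genes rose and 23.3% fell. PHF1, a Polycomb-like subunit that binds methylated H3K36, rose by 0.29 with siL1 (adjusted p = 0.00092) and by 0.59 with siL2 (adjusted p = 2.34e-06). PHF19, of the same family, rose by 0.12 and 0.18 (adjusted p = 0.0356 and 0.0029). AEBP2, which defines the PRC2 form that also holds JARID2, fell by 0.22 with siL1 and by 0.33 with siL2 (adjusted p = 0.00234 and 0.000143). C17orf96, which encodes EPOP, fell with siL2 (-0.60, adjusted p = 2.86e-05) and had -0.13 with siL1 (adjusted p = 0.163). LCOR and LCORL, which encode PALI-type partners of PRC2 in some transcripts, each rose with siL1 (0.43 and 0.40, adjusted p = 0.000271 and 0.00132). LCORL also rose with siL2 (0.39, adjusted p = 0.00189), and LCOR did not pass (-0.11, adjusted p = 0.244).

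Of 26 other PRC1 genes tested from a list of 27, 5 rose and 6 fell with siL1 (median 0.01), and 4 rose and 10 fell with siL2 (median -0.14). SCML2, a sex comb on midleg homologue, rose by 0.93 with siL1 and 0.81 with siL2 (adjusted p = 3.11e-07 and 1.3e-06). PCGF3, which takes the place of BMI1 in a variant PRC1, rose by 0.84 and 0.62 (adjusted p = 3.4e-07 and 5.57e-06). KDM2B, the CXXC protein that brings a variant PRC1 to CpG islands, fell by 0.62 and 0.50 (adjusted p = 7.53e-07 and 4.75e-06). Among the chromodomain genes, CBX2 fell by 0.66 with siL1 and by 0.18 with siL2 (adjusted p = 2.94e-06 and 0.0282). CBX7 moved in opposite directions: it averaged 15.4 CPM after siL1 and 29.9 CPM after siL2, against 23.3 CPM after siControl. Its log2 fold change was -0.59 with siL1 (adjusted p = 0.000449) and 0.36 with siL2 (adjusted p = 0.00895), and siL2 differed from siL1 (adjusted p = 8.86e-06). FBRSL1, of the AUTS2 family of PRC1 partners, fell by 0.17 with siL1 and by 0.44 with siL2 (adjusted p = 0.0315 and 6.93e-05).

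**Figure D4:**
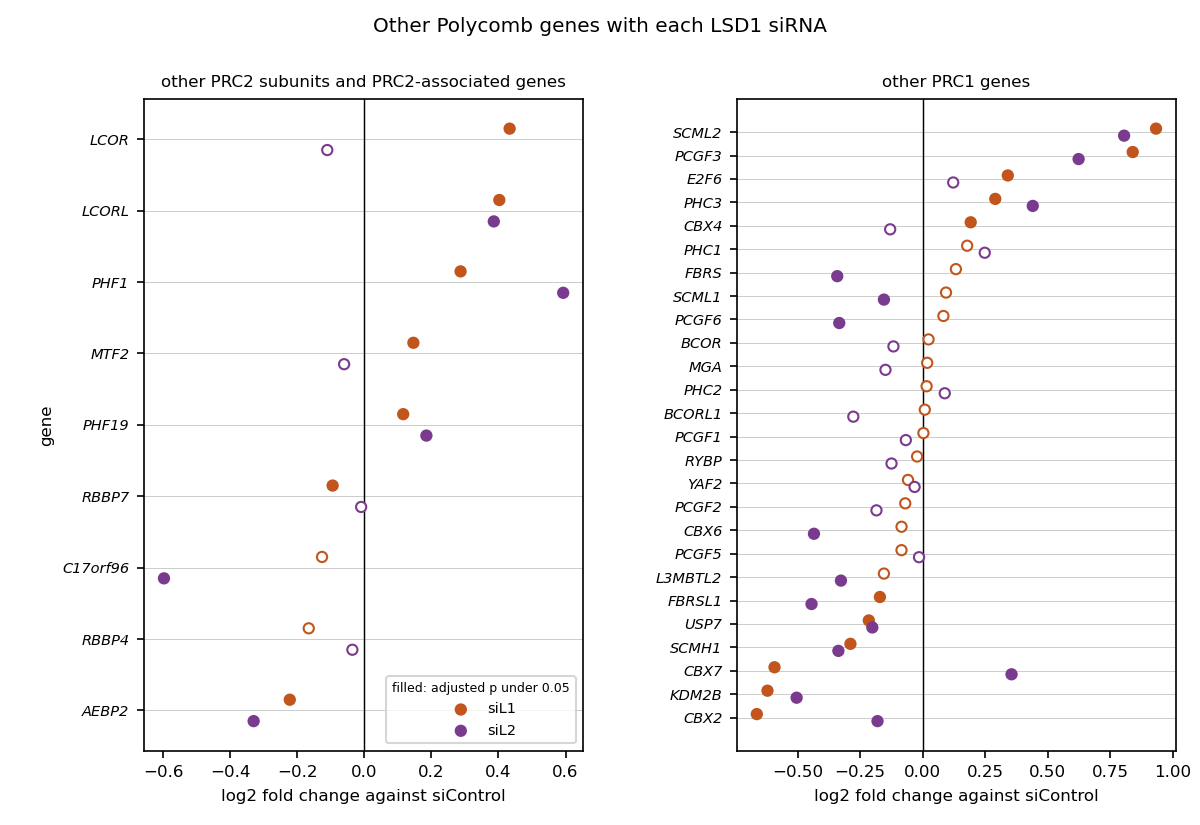
Log2 fold changes against siControl of the tested genes on the lists of other PRC2 genes (left) and other PRC1 genes (right), for siL1 and siL2; genes run down the page by their change with siL1. Filled points passed an adjusted p of 0.05; SCML2 and PCGF3 lie above 0 and KDM2B below 0 with both siRNAs, and CBX7 lies on opposite sides.

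Genes that counteract Polycomb were followed on a list of 9 symbols with 7 tested. With siL1 3 fell and 0 rose (median -0.18), and with siL2 2 rose and 2 fell (median 0.05). ASXL1 and ASXL2, partners of the H2A deubiquitinase BAP1, fell with siL1 by 0.22 and 0.28 (adjusted p = 0.00262 and 0.000259). With siL2, ASXL2 fell by 0.13 (adjusted p = 0.0356) and ASXL1 did not pass (0.05, adjusted p = 0.45). MYSM1, another H2A deubiquitinase, fell with siL1 (-0.23, adjusted p = 0.0315). BAP1 and the deubiquitinase USP16 rose with siL2 (0.11 and 0.24, adjusted p = 0.0411 and 0.0155). The H3K27 demethylase KDM6B fell with siL2 (-0.25, adjusted p = 0.0391), and its relative KDM6A passed with neither siRNA (0.20 and 0.29, adjusted p = 0.187 and 0.0629).

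HOX genes are textbook targets of Polycomb repression. Of 39 HOX genes, 15 had 0 counts in all 6 libraries and 14 passed the filter, so the description covers the expressed minority. With siL1 4 rose and 0 fell (median of those tested 0.24), and with siL2 1 rose and 2 fell (median -0.03). Among all genes tested, 24.7% rose and 25.7% fell with siL1, and 22.6% rose and 23.3% fell with siL2. The 4 of 14 that rose with siL1 are thus near the share over all genes, while the 0 of 14 that fell lie below it. The median of all genes tested was -0.01 with siL1, below that of the HOX genes, and this difference was not tested. HOXB3 averaged 11.3 CPM after siL1 and 7.82 CPM after siL2, against 6.25 CPM after siControl, and rose with siL1 (0.86, adjusted p = 0.000102). HOXD1 rose with siL1 (0.80, adjusted p = 0.00248) and had 0.12 with siL2 (adjusted p = 0.654). HOXD3 rose with both (0.41 and 0.46, adjusted p = 0.0459 and 0.0274). HOXB9 rose with siL1 (0.40, adjusted p = 0.00196) and fell with siL2 (-0.31, adjusted p = 0.0128), and siL2 differed from siL1 (adjusted p = 2.9e-05). HOXB7 fell with siL2 (-0.69, adjusted p = 0.045), at a mean of 0.998 CPM against 1.60 CPM in the control.

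E2F and proliferation genes were set beside EZH2. Of 24 tested, 21 fell and 3 rose with siL1 (median -0.32), whereas 8 fell and 6 rose with siL2 (median -0.06). Their summed level was 5283 and 5399 CPM after siL1 and 6332 and 6582 CPM after siL2, against 6426 and 6582 CPM after siControl. The siL1 libraries lay below the controls and the siL2 libraries spanned their range. Genes of high level weigh most in such a sum. CCNE1, which encodes cyclin E1, fell by 1.13 with siL1 and by 0.57 with siL2 (adjusted p = 1.68e-06 and 0.000341). E2F2 fell with siL1 (-0.86, adjusted p = 3.98e-05) and had 0.10 with siL2 (adjusted p = 0.438). The replication helicase gene MCM6 fell with siL1 (-0.72, adjusted p = 3.15e-08) and rose with siL2 (0.13, adjusted p = 0.0206). E2F3 fell by 0.16 and 0.66 (adjusted p = 0.024 and 1.07e-06), the repressor E2F7 rose by 0.65 and 0.63 (adjusted p = 1.92e-06 and 2.96e-06), and CCNE2 rose by 0.41 and 0.76 (adjusted p = 0.000524 and 2.76e-06). The part of proliferation in the change of EZH2 was not tested.

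A set of 4 heptamers, chosen from earlier results on these counts, was looked up in the 3′ untranslated regions of the 9 genes. The medians below are therefore not independent of that choice, and the length of the region was not accounted for. Among 11370 tested genes with such a region, the 30.9% that held TACATTT or ACATTTA had a median log2 fold change of 0.05 with siL1 and 0.06 with siL2, against -0.03 and -0.02 for those without. Either heptamer occurred in 4 of the 9 genes. ACAGAGC and GTTACAA occurred in none of them, against 14.9% and 8.05% of the genes searched. Genes with ACAGAGC had a median of -0.02 with siL1, against -0.00 without it, and of -0.002 with siL2, against -0.004. Those with GTTACAA had a median of 0.04 with siL1, against -0.01 without it, and of -0.13 with siL2, against 0.00. One window of 29 bases is shown for each gene that held TACATTT or ACATTTA, 5′ to 3′ on the transcript in GENCODE 29, with the heptamer in capitals.
EZH2: atgcagtatggTACATTTttcaactttga
SUZ12: aacactgaaatTACATTTtagggaattca
JARID2: aagaaaagcctTACATTTcagtttcttca
RNF2: tatacatagccACATTTAcagttttaacc

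JARID2, which rose with both siRNAs, held TACATTT once and ACATTTA at 2 further places in a region of 1770 bases. SUZ12, which rose with siL2, held TACATTT at base 38 of 2042. EZH2 held it at base 224 of 261 and fell with both siRNAs, and RNF2 held ACATTTA at base 2143 of 2307 and fell with siL1. EZH1, EED, RING1, BMI1 and CBX8 held none of the 4 heptamers. The siRNA sequences were not known, and the part of these letters in the changes was not tested.

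The genes whose pattern over the 6 libraries was most like that of the 3 members with the largest change were found among 10446 other genes averaging 5 CPM or more. Likeness was the root mean square difference of log2 CPM centred on each gene's mean. Nearest to EZH2 were ZNF263 (0.0205), SNHG1 (0.0276) and KIAA0020 (0.0296). ZNF263, a zinc finger gene, had log2 fold changes of -0.58 with siL1 and -0.47 with siL2. Nearest to EZH1 were ZBTB5 (0.0319), the spindle and kinetochore gene SKA1 (0.0373) and IGFBP3 (0.0376), which encodes a binding protein of insulin-like growth factors. IGFBP3 had -0.49 with siL1 and -0.00 with siL2. Nearest to JARID2 were the nuclear receptor gene NR2C2 (0.0186), TAF5 of the general factor TFIID (0.0249) and GPSM3 (0.0259). With only 3 groups, many genes share such a pattern.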

How the data were processed

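The data are RNA-seq counts for 6 MDA-MB231 libraries, placed in groups of 2 by title. Per the submitters' processing notes, TopHat 1.3.3, HTSeq and DESeq were used with hg19; annotation release, counting and strand settings are not given in the sources used here. Per the file headers, the authors deposited raw read counts per gene symbol, a linear fold change (ratio) of each LSD1 siRNA over the control, and an adjusted p-value.

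Counts were analysed with R 4.3.3 and edgeR 4.0.16 (limma 3.58.1). After filterByExpr (10046 symbols dropped, 13322 retained) and TMM scaling (factors 0.993 to 1.01), glmQLFit was run on all 6 libraries with no term but group, leaving 3 residual degrees of freedom. Contrasts were two-sided glmQLFTest results, adjusted by Benjamini-Hochberg over the retained genes. The SE is the log2 fold change divided by the square root of F. CPM used total counts; SDs are over 2 libraries. Log2 CPM for pattern likeness used a prior count of 2. A count of 3, which a count of 0 allows, was 0.112 to 0.136 CPM, for counting error only.

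Named genes were KDM1A, the 9 members, genes that may share reads with a member, and the nearest patterns. Up to 6 genes per list were also named, those past the threshold with the largest change and a mean of at least 1 CPM. ESR1, PGR, CDH1, EPCAM, ALB and KDM6A, outside this rule, were added after their values were seen. Members, lists and heptamers were chosen with earlier results of these data known. Exon lengths and 3′ untranslated regions came from GENCODE 29 on GRCh38, joined by symbol to counts made on hg19. Python 3.11.15, numpy 2.4.6 and pandas 2.3.3 were used. Exon length was the merged length of all annotated exons of a gene. For the 3′ untranslated region, the transcript with the longest coding part was taken. Figures used matplotlib 3.10.9. Alternatives were DESeq2 size factors, upper quartile scaling, no filter, 1 CPM in 2 libraries, DESeq2 1.42.0, limma-voom, a replicate block, fits of only the groups compared, and leaving out each library.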

Additional observations from a re-analysis of the deposited data

Results flagged for a closer look

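Both LSD1 siRNAs were compared with the same control, and for 5 Polycomb genes the change differed between them by the test of siL2 against siL1 (edgeR's quasi-likelihood test, adjusted over all genes). Of all genes tested, 46.8% passed that test, so 5 of 9 is near the share over all genes. EZH1 was higher with siL2 by 0.48 on the log2 scale (adjusted p = 0.00014), RNF2 by 0.17 (adjusted p = 0.0309), EED by 0.14 (adjusted p = 0.0434) and SUZ12 by 0.13 (adjusted p = 0.0263). CBX8 differed by -0.31 (adjusted p = 0.0396), being lower with siL2. In each case both siL2 libraries lay on the same side of both siL1 libraries. The same held for EZH2, JARID2, RING1 and BMI1, which did not pass, so this separation does not set the 5 genes apart. The share of all genes separated in this way is not given here, so the separation is not read as a result about the members. Over 14 alternatives the adjusted p reached at most 0.00286 for EZH1, 0.173 for RNF2, 0.312 for EED, 0.201 for SUZ12 and 0.226 for CBX8.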

How the results depend on the processing

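Under 14 alternatives per comparison, the 5 calls with siL1 and the 3 calls with siL2 against the control held for every Polycomb gene. Between siL2 and siL1, the count of 5 was 1 with DESeq2's test and 4 with upper quartile scaling, which lost EED (adjusted p = 0.0505), and ranged from 1 to 5 when each library was left out in turn. DESeq2's test lost EED, SUZ12, RNF2 and CBX8, and the cause was not tested. A group with a library left out keeps 1 sample, assumed to vary like the other groups. Directions reversed only for values that had not passed, and only when a library was left out. RING1 with siL1 ranged from -0.095 to 0.026, the highest without siControl replicate 2. CBX8 with siL1 ranged from -0.0085, without siControl replicate 2, to 0.21. EZH1 with siL2 ranged from -0.077 to 0.035, and was above 0 without siControl replicate 1 (0.015) and without siL2 replicate 1 (0.035). Replicate numbers are common to the groups, but the labels tie them to no batch or culture. Deviations of same-numbered libraries from their group means correlated at 0.349 to 0.453 over 10447 genes. With the replicate block, 8036, 7610 and 7700 genes passed for siL1, siL2 and siL2 against siL1, against 6712, 6106 and 6240 without it, and the members called numbered 5, 4 and 6; EED with siL2 (adjusted p = 0.0111) and JARID2 in siL2 against siL1 (adjusted p = 0.0257) were added. BMI1 rested on 85 to 113 reads a library, the fewest of the 9 genes.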
